A study of Rattus norvegicus with 8 samples.

Results

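The 5 genes described here take glutamate out of the synaptic space and turn it over: the glutamate transporters Slc1a1, Slc1a2 and Slc1a3, the glutamine synthetase gene Glul and the glutamate dehydrogenase gene Glud1. They are named by gene symbol, and each was read from every probe set that the platform's probe annotation gives to 1 of these symbols. This gave 5 genes of the 4737 named on the array, with 18 of its 8799 probe sets: 3 for Slc1a1, 4 for Slc1a2, 4 for Slc1a3, 4 for Glul and 3 for Glud1. A probe set is a group of short DNA probes whose combined brightness, the intensity, reports 1 transcript.

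Total RNA from whole brains of intubated rats was measured on 8 arrays, 1 per sample. Controls (3 samples) had 3 min of isoflurane, an inhaled general anaesthetic, followed directly by perfusion with cold saline, and the exposed rats had 2% isoflurane for 1 hr (2 samples) or 2 hr (3 samples). The labels mention perfusion for the controls alone and give no strain, age or sex, and all groups, controls included, breathed isoflurane. Since no animal is numbered, p-values here speak for the spread between samples, which may be technical in part.

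Glutamate is the main excitatory transmitter of the brain, and it is cleared from the synapse by sodium-driven transporters rather than by breakdown outside the cell. Astrocytes carry most of this uptake through Slc1a2 (GLT-1) and Slc1a3 (GLAST), while Slc1a1 (EAAC1) lies mainly on neurons. Inside the astrocyte glutamine synthetase joins glutamate to ammonia, and the glutamine is handed back to neurons. Glutamate dehydrogenase, a mitochondrial enzyme, instead turns glutamate into alpha-ketoglutarate.

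No difference between exposed and control brains passed the test for any of the 5 genes. Of the 18 probe sets, 17 lay above the floor of the log2 scale (an intensity of 9.1) on at least 2 of the 8 arrays and were tested. At an adjusted p threshold of 0.05 in limma, 0 of the 17 passed in any of the 3 comparisons, and 0.0% of all 7770 tested probe sets passed in each. At an unadjusted p under 0.05 the members' count was again 0 in each comparison, beside 1.79% of all probe sets after 2 hr and 2.68% after 1 hr, both against control, and 2.77% between the exposed groups. The smallest unadjusted p of a member in limma was 0.143 (Slc1a3 S75687_s_at) after 2 hr and 0.137 (Glud1 rc_AI137421_at) after 1 hr, both against control, and 0.0980 (Slc1a1 AF038571_s_at) between the exposed groups. Simulated data with the spread of these arrays showed what the design can detect: over 7770 probe sets, the comparison of 2 hr with control recovered 1.8% of the simulated log2 changes of size 1 and 35.2% of those of size 2. The tissue was whole brain, so fewer cells of a type and less RNA per cell cannot be told apart in any value given here.

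**Figure D1:**
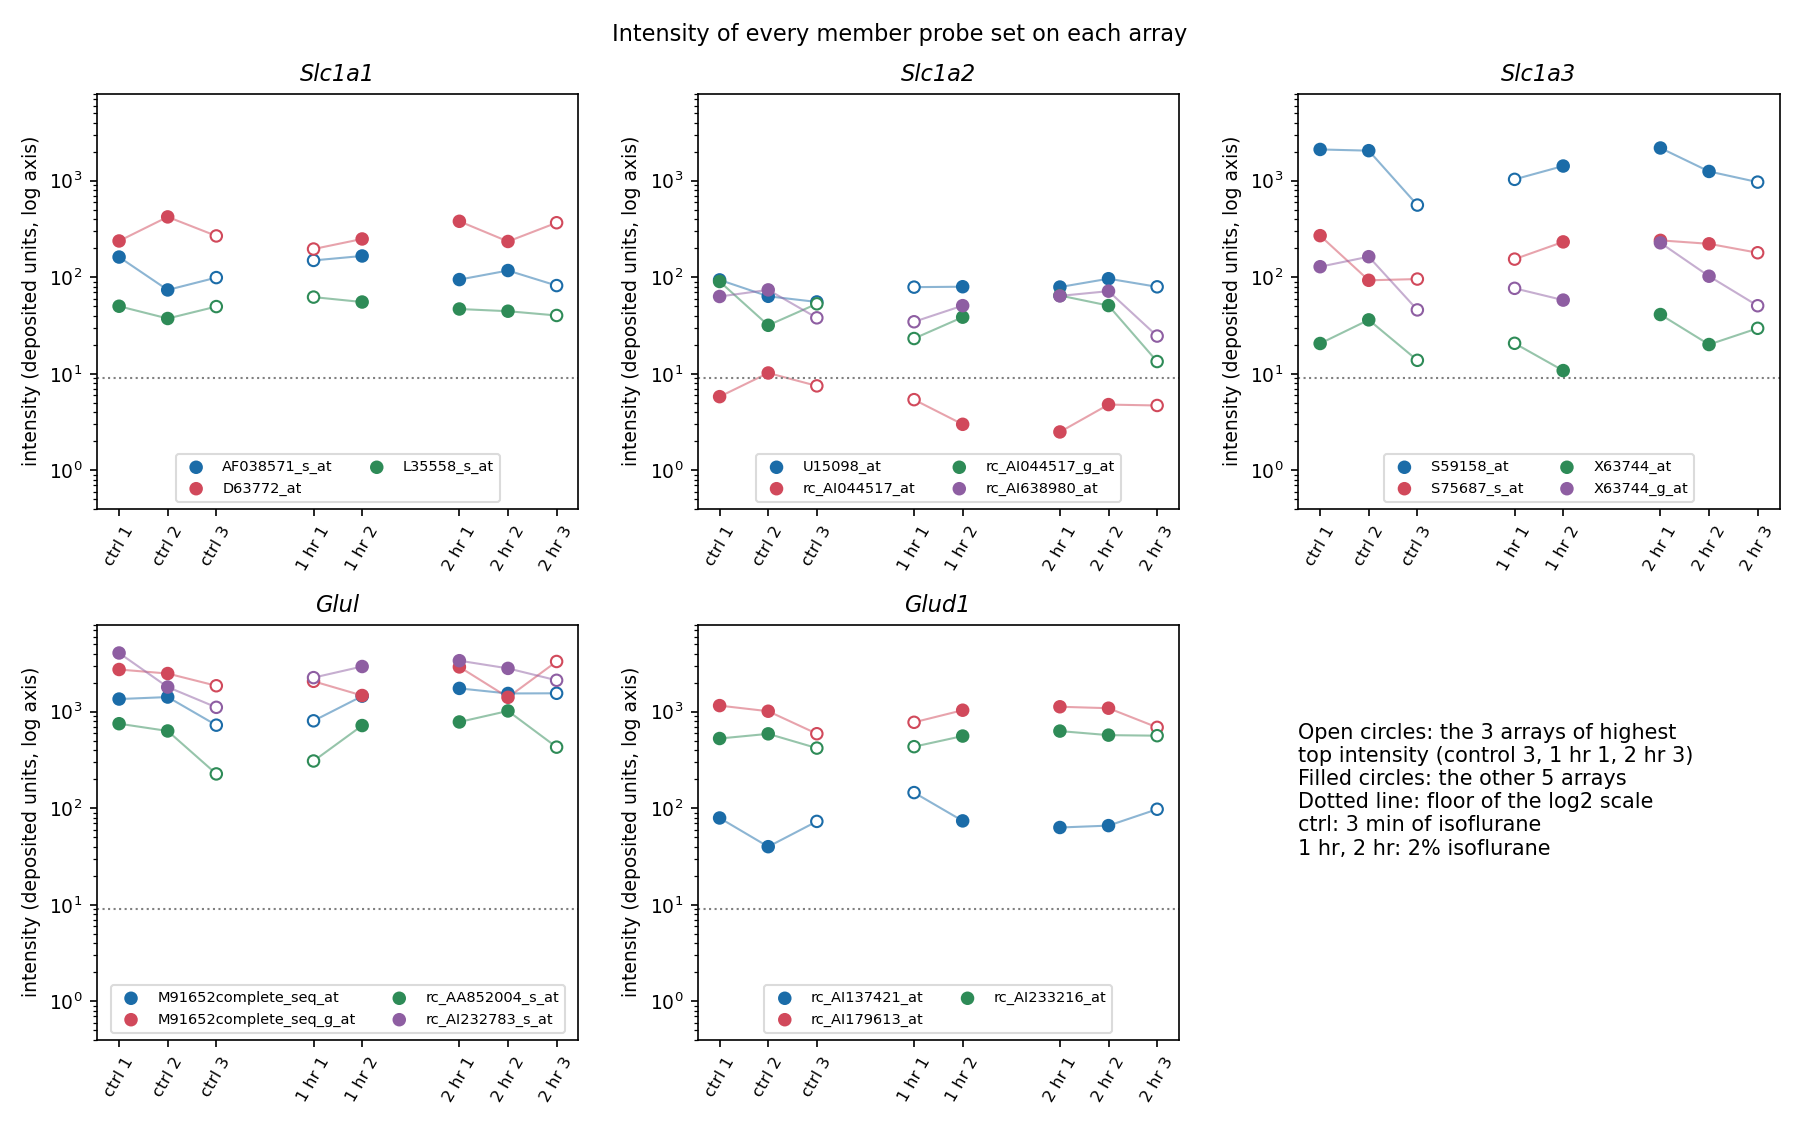
Intensity on a log axis for each of the 18 probe sets, 1 panel per gene, with the arrays grouped as control, 1 hr and 2 hr from left to right; lines only join the arrays of a group. Open circles are control 3, 1 hr 1 and 2 hr 3, and the dotted line is the floor at 9.1; in Slc1a3, for example, S59158_at spans 559.2 to 2107.1 in controls, 1032.7 to 1418.8 after 1 hr and 966.8 to 2181.3 after 2 hr.

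The promoters of the members are shown here where upstream sequence was at hand, and any link between sequence and readings was not tested. RefSeq sequence (assembly GRCr8) was at hand for 4 of the 5 members, and each line gives the 250 bases before an annotated start, 5′ to 3′ on the strand of the gene. Capitals mark matches, on either strand, to CCAAT (the CCAAT box), GGGCGG (the GC box), TATAAA (the TATA box) and TGTTCT (a glucocorticoid receptor half-site). Over the 33469 such windows in the table, 34.0% held CCAAT, 30.5% GGGCGG, 12.9% TATAAA and 17.5% TGTTCT. Of the starts listed, the most upstream is shown for Slc1a3 and both are shown for Slc1a2 and Glul.
Slc1a2, upstream start, chr3:109459859-109460108, plus strand: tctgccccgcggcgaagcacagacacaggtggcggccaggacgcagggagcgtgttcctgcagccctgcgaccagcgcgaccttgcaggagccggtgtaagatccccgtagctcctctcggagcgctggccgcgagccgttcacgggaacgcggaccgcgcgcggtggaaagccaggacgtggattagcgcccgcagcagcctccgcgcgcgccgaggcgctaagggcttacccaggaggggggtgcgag
Slc1a2, downstream start, chr3:109507697-109507946, plus strand: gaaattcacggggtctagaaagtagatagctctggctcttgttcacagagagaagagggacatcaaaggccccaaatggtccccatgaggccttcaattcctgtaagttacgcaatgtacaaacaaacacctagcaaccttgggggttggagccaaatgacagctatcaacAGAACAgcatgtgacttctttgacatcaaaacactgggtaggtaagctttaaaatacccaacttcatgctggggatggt
Slc1a3, chr2:59557809-59558058, minus strand: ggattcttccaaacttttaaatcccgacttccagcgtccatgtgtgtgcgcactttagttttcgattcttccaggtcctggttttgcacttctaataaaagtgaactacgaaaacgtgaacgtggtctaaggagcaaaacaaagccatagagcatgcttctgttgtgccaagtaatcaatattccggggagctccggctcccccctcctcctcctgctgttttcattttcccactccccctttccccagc
Glul, upstream start, chr13:68519250-68519499, plus strand: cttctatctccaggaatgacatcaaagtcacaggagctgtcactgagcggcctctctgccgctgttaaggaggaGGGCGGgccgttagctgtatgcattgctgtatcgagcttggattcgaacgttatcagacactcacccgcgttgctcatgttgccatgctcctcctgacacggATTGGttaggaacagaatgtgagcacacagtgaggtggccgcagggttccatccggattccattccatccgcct
Glul, downstream start, chr13:68575816-68576065, plus strand: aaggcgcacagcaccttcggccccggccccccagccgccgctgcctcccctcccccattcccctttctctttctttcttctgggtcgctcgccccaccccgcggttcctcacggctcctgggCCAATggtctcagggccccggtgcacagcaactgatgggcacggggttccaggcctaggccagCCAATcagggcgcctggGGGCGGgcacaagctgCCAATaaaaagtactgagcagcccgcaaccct
Glud1, chr16:9646319-9646568, plus strand: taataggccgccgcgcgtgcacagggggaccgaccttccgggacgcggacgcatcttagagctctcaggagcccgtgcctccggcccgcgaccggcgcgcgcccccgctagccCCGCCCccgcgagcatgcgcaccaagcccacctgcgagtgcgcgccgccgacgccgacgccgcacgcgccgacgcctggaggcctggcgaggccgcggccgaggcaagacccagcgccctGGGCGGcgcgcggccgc

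Counted back from the base before the start as -1, the downstream Glul window held CCAAT matches beginning at -128, -65 and -32 and a GC box at -48, and the matches did not overlap. The upstream Glul window held 1 CCAAT match at -74, on the opposite strand, and 1 GC box at -176. The Glud1 window held a GC box at -137, on the opposite strand, and another at -17. The downstream Slc1a2 window held 1 match to TGTTCT at -79, on the opposite strand. The upstream Slc1a2 window and the Slc1a3 window held 0 matches to the 4 motifs, and no window shown held TATAAA. A match describes the letters of the window and not a bound site, and the array data say nothing about which start was used.

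Slc1a3 encodes the astrocyte transporter GLAST. Its brightest probe set (S59158_at) read 2107.1, 2046.5 and 559.2 in the controls, 1032.7 and 1418.8 after 1 hr, and 2181.3, 1247.0 and 966.8 after 2 hr. The 2 hr and control ranges overlapped widely, and the 3.77-fold spread among the controls came from control replicate 3, the lowest of all 8 arrays. The log2 intensity averaged 10.43 ± 0.60 after 2 hr (SD, n = 3) and 10.39 ± 1.09 in controls (SD, n = 3), a log2 change of 0.04 with a 95% interval of -1.19 to 1.27 in limma. After 1 hr it averaged 10.24 ± 0.32 (SD, n = 2), a log2 change of -0.15 (-1.52 to 1.23) against control. As a fold the 2 hr interval runs from 0.439 to 2.41. Without control replicate 3 the log2 changes were -0.59 for 2 hr and -0.78 for 1 hr, so the sign of the 2 hr change turned.

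Against control, the other Slc1a3 probe sets had fitted changes above 0 for 2 hr, without any passing, and no common direction for 1 hr. S75687_s_at read 269.6, 93.0 and 95.8 in controls, 154.1 and 232.4 after 1 hr and 241.0, 222.0 and 179.4 after 2 hr. Control replicate 1 was the highest array and the other controls the lowest, so the groups overlapped although the fitted log2 change was 0.67 for 2 hr and 0.50 for 1 hr against control (1.17 and 1.00 without control replicate 1). The name of S75687_s_at holds "_s_", which marks probe sets that can match more than 1 transcript. X63744_g_at read 128.6, 163.3 and 45.9 in controls, 76.8 and 58.0 after 1 hr and 227.3, 102.5 and 50.7 after 2 hr. It thus spanned 4.48-fold within the 2 hr group alone, and its fitted log2 change was 0.10 for 2 hr and -0.57 for 1 hr against control. Without control replicate 3 its 2 hr change was -0.46. The dim X63744_at lay between 10.8 and 41.1 on all arrays, with fitted log2 changes of 0.42 and -0.54.

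Slc1a2 encodes GLT-1, the transporter known to carry most glutamate uptake in the forebrain. Its brightest probe set (U15098_at) read 93.9, 63.5 and 55.5 in controls, 79.0 and 79.8 after 1 hr, and 79.2, 96.6 and 79.6 after 2 hr. All 5 exposed arrays lay above the 2 lower controls and only 2 hr replicate 2 lay above control replicate 1. The log2 intensity averaged 6.41 ± 0.16 after 2 hr (SD, n = 3) and 6.11 ± 0.39 in controls (SD, n = 3), a log2 change of 0.29 (95% interval -0.44 to 1.03, limma), and 6.31 ± 0.01 after 1 hr (SD, n = 2), a log2 change of 0.20 (-0.62 to 1.02). Without control replicate 3 these changes were 0.13 and 0.04.

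The other tested Slc1a2 probe sets were lowest on an exposed array. rc_AI638980_at read 63.2, 74.0 and 38.0 in controls, 34.6 and 50.8 after 1 hr and 64.1, 71.8 and 24.6 after 2 hr. rc_AI044517_g_at read 90.4, 31.8 and 53.1 in controls, 23.2 and 38.6 after 1 hr and 64.7, 50.9 and 13.4 after 2 hr. For both the lowest array was 2 hr replicate 3. Against control the fitted log2 changes were -0.22 for 2 hr and -0.42 for 1 hr for rc_AI638980_at, and -0.60 and -0.84 for rc_AI044517_g_at, with standard errors of 0.510 to 0.735. Without 2 hr replicate 3 the 2 hr changes were 0.27 for rc_AI638980_at and 0.10 for rc_AI044517_g_at, so both signs turned. The fourth, rc_AI044517_at, lay at or below 10.2 on all arrays and above the floor on control replicate 2 alone, so it was not tested. An intensity depends on its probes, so these low readings are not a level of Slc1a2 RNA relative to the other genes.

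Slc1a1 encodes EAAC1, the neuronal transporter, and its probe sets ran against each other over the arrays. The brightest (D63772_at) read 237.6, 421.8 and 267.9 in controls, 196.0 and 249.2 after 1 hr and 379.8, 234.7 and 367.0 after 2 hr. AF038571_s_at read 161.9, 73.9 and 99.2 in controls, 149.4 and 166.1 after 1 hr and 94.6, 117.4 and 82.0 after 2 hr. L35558_s_at read 50.1, 37.4 and 49.7 in controls, 62.3 and 55.4 after 1 hr and 46.9, 44.5 and 40.2 after 2 hr. Where D63772_at was high, as on control replicate 2 and 2 hr replicate 3, the other probe sets were low. The names of AF038571_s_at and L35558_s_at hold "_s_", so both can match more than 1 transcript, and the part of this was not tested. Over the 8 arrays the Pearson correlation of log2 intensities was -0.86 between D63772_at and AF038571_s_at, -0.82 between D63772_at and L35558_s_at, and 0.83 between AF038571_s_at and L35558_s_at, given as a description of arrays that share their scaling.

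The sign of the 1 hr change of Slc1a1 therefore depended on the probe set. D63772_at averaged 7.79 ± 0.24 after 1 hr (SD, n = 2) and 8.23 ± 0.44 in controls (SD, n = 3), a log2 change of -0.44 (95% interval -1.22 to 0.34, limma). The fitted change was 0.57 for AF038571_s_at and 0.37 for L35558_s_at. Leaving out 1 array at a time gave -0.61 to -0.19 for D63772_at, 0.31 to 0.88 for AF038571_s_at and 0.24 to 0.46 for L35558_s_at. For L35558_s_at both 1 hr arrays lay above all 3 controls, as did those of 7.54% of all probe sets. Between 2 hr and 1 hr the fitted changes were 0.53 for D63772_at, -0.70 for AF038571_s_at and -0.42 for L35558_s_at, and AF038571_s_at and L35558_s_at were lower on every 2 hr array than on either 1 hr array, as were 7.82% of all probe sets. After 2 hr D63772_at averaged 8.32 ± 0.39 (SD, n = 3), a log2 change of 0.10 (-0.60 to 0.79) against control.

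Glul encodes glutamine synthetase, the enzyme that in the brain is found mainly in astrocytes and is known as a glucocorticoid-inducible gene. M91652complete_seq_at was the only tested member probe set whose 2 hr and control arrays did not overlap, and it did not pass the test. It read 1351.9, 1418.2 and 725.3 in controls, 804.5 and 1449.7 after 1 hr and 1743.1, 1544.8 and 1551.3 after 2 hr. Every 2 hr array lay above every control and every 1 hr array, a separation seen upward in 2.9% of all probe sets for 2 hr against control and in 5.98% for 2 hr against 1 hr. The log2 intensity averaged 10.65 ± 0.10 after 2 hr (SD, n = 3) and 10.12 ± 0.54 in controls (SD, n = 3), a log2 change of 0.53 (95% interval -0.32 to 1.37, limma, unadjusted p = 0.192, adjusted p = 1.0). Without control replicate 3 the change was 0.22.

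The brightest Glul probe set (rc_AI232783_s_at) read 4055.1, 1799.8 and 1109.9 in controls, 2253.9 and 2937.6 after 1 hr and 3374.5, 2809.6 and 2114.8 after 2 hr. The controls bracketed all exposed arrays, with control replicate 1 the highest and control replicates 2 and 3 the lowest. Its log2 intensity averaged 11.41 ± 0.34 after 2 hr (SD, n = 3) and 10.97 ± 0.94 in controls (SD, n = 3), a log2 change of 0.44 (95% interval -0.72 to 1.59, limma), which was 0.01 without control replicate 3 and 0.94 without control replicate 1. After 1 hr it averaged 11.33 ± 0.27 (SD, n = 2), a log2 change of 0.36 (-0.93 to 1.65), which was -0.070 without control replicate 3.

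The remaining Glul probe sets overlapped between all groups. rc_AA852004_s_at read 751.0, 631.5 and 226.8 in controls, 308.6 and 718.6 after 1 hr and 782.8, 1017.9 and 429.4 after 2 hr. M91652complete_seq_g_at read 2735.0, 2484.3 and 1856.2 in controls, 2063.3 and 1470.8 after 1 hr and 2908.5, 1409.1 and 3311.6 after 2 hr. Their fitted log2 changes for 2 hr against control were 0.56 and 0.04, so all 4 Glul probe sets had a fitted change above 0 without any passing. Without control replicate 3 the change was 0.02 for rc_AA852004_s_at and -0.13 for M91652complete_seq_g_at. Probe sets whose name holds "_s_" can match more than 1 transcript, and RefSeq names 2 Glul pseudogenes, and the part of such related sequence in these signals was not tested.

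Glud1 encodes glutamate dehydrogenase. Its brightest probe set (rc_AI179613_at) read 1156.2, 1011.2 and 591.4 in controls, 776.6 and 1036.2 after 1 hr and 1124.9, 1087.1 and 688.7 after 2 hr. Each group held a low array, and the ranges overlapped. The log2 intensity averaged 9.88 ± 0.40 after 2 hr (SD, n = 3) and 9.79 ± 0.51 in controls (SD, n = 3), a log2 change of 0.09 (95% interval -0.70 to 0.89, limma), and 9.81 ± 0.29 after 1 hr (SD, n = 2), a log2 change of 0.02 (-0.87 to 0.91). Without control replicate 3 these changes were -0.20 and -0.27. rc_AI233216_at was the steadiest reading of any tested member, with a 1.5-fold range over the 8 arrays. It read 527.6, 589.8 and 419.7 in controls, 434.3 and 559.4 after 1 hr and 629.9, 571.8 and 564.3 after 2 hr.

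For this probe set all 2 hr arrays lay above both 1 hr arrays, as did those of 5.98% of all probe sets, with a log2 change of 0.25 (95% interval -0.38 to 0.89, limma). Against control the 2 hr change was 0.21 (-0.35 to 0.78), which as a fold runs from 0.783 to 1.72. The dimmer rc_AI137421_at averaged a log2 intensity of 5.94 ± 0.54 in controls (SD, n = 3), 6.70 ± 0.69 after 1 hr (SD, n = 2) and 6.21 ± 0.35 after 2 hr (SD, n = 3). It was highest on 1 hr replicate 1, at 145.3, an array on which both other Glud1 probe sets were among their 3 lowest, and over the 8 arrays its correlation with them was -0.43 and -0.58.

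**Figure D2:**
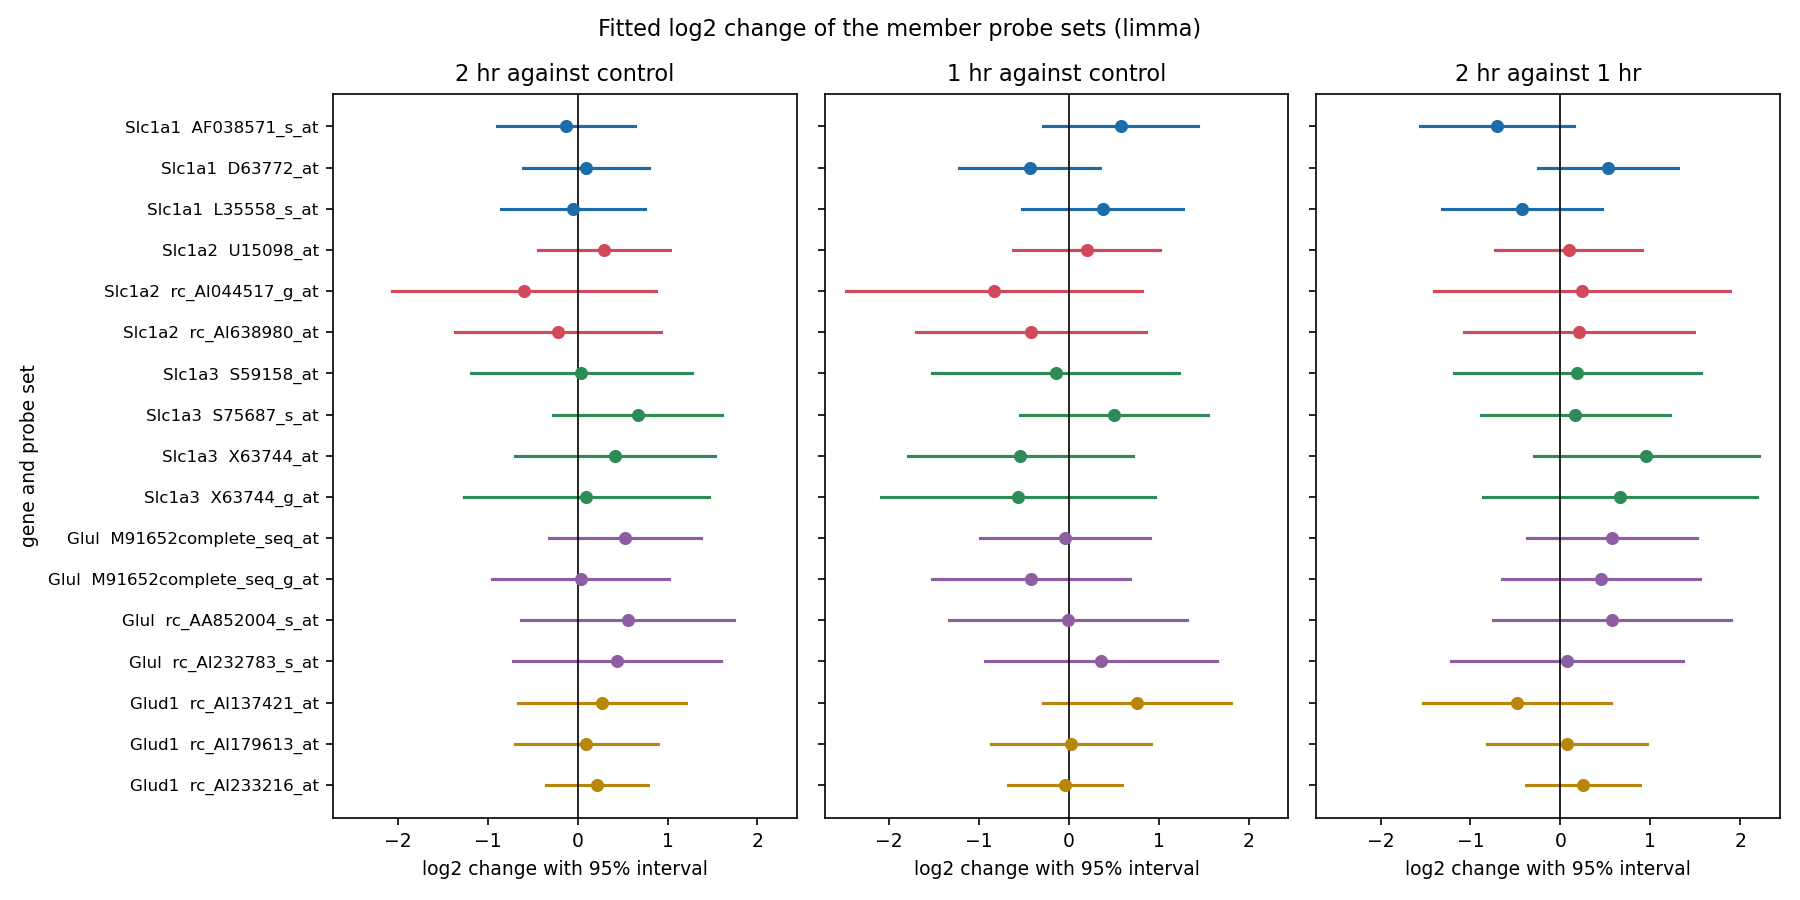
Fitted log2 change (points) with its 95% interval (bars) from limma for the 17 tested probe sets, coloured by gene, in 3 panels for 2 hr against control, 1 hr against control and 2 hr against 1 hr. Every interval includes 0, and probe sets of 1 gene can lie on both sides of it.

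Counted together, 13 of the 17 probe sets had a fitted change above 0 and 4 below for 2 hr against control, with a median log2 change of 0.10 beside 0.02 over all probe sets, of which 52.3% were above 0. Against control at 1 hr, 7 were above and 10 below, with a median of -0.04 beside 0.05 over all, of which 55.8% were above 0. Between 2 hr and 1 hr, 14 were above and 3 below, with a median of 0.21 beside -0.03 over all, of which 47.4% were above 0. Groups that did not overlap were found for 1 member after 2 hr against control (1 higher and 0 lower, beside 2.9% and 2.55% of all probe sets, 5.44% in either direction). After 1 hr against control it was again 1 (1 higher and 0 lower, beside 7.54% and 5.11%, 12.7% in either direction), and between 2 hr and 1 hr it was 4 (2 higher and 2 lower, beside 5.98% and 7.82%, 13.8% in either direction). The comparisons share arrays, several probe sets report the same gene, and several members were low on the same 3 arrays, so these counts are not independent votes.

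Several members were low together on 3 arrays, 1 of each exposure group. Control replicate 3, 1 hr replicate 1 and 2 hr replicate 3 had the highest top intensities, at 24393.4, 23009.4 and 37711.8 against 3504.2 to 12444.6 on the other 5 arrays. Probe sets of 4 genes read lower on all 3 of these arrays than on any of the others: S59158_at of Slc1a3 (559.2 to 1032.7 against 1247.0 to 2181.3), rc_AA852004_s_at of Glul (226.8 to 429.4 against 631.5 to 1017.9), rc_AI179613_at of Glud1 (591.4 to 776.6 against 1011.2 to 1156.2) and rc_AI638980_at of Slc1a2 (24.6 to 38.0 against 50.8 to 74.0). These 4 of 17 stand beside 6.95% of all probe sets with the same separation downward, and 0 of 17 beside 7.98% with it upward. The mean log2 intensity on the 3 arrays minus that on the other 5 was -1.31 for the Glul probe set, -1.09 for Slc1a3, -1.01 for Slc1a2 and -0.67 for Glud1. This difference was below 0 for 14 of the 17. It was 0.69 for Glud1 rc_AI137421_at, 0.15 for Glul M91652complete_seq_g_at and 0.10 for Slc1a1 L35558_s_at. Of the 5 brightest probe sets 2 showed the full separation, and the brightest of Slc1a2 (U15098_at) differed by -0.21. The labels name no such grouping of arrays.

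**Figure D3:**
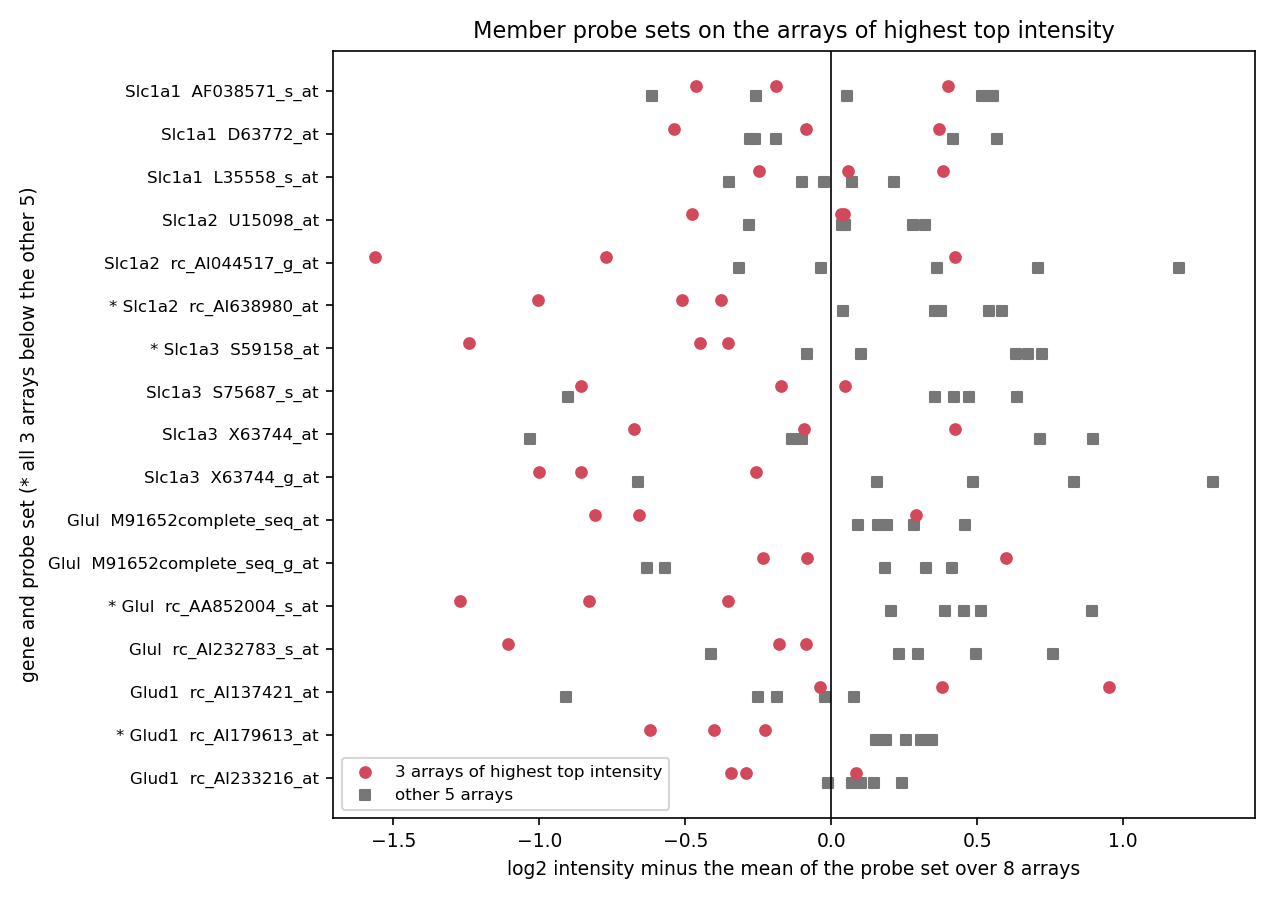
Log2 intensity minus the mean of the probe set over the 8 arrays (horizontal axis) for the 17 tested probe sets. Circles are the 3 arrays of highest top intensity and squares the other 5; a star marks the 4 probe sets of Slc1a2, Slc1a3, Glul and Glud1 in which all circles lie left of all squares.

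Within the sets of arrays the direction for the brightest Slc1a3 probe set differed, as did that of the brightest Slc1a1 probe set for 2 hr against control. Among the 3 arrays of highest top intensity S59158_at was higher by 0.79 on the log2 scale on 2 hr replicate 3 than on control replicate 3, whereas among the others the 2 hr mean minus the control mean was -0.33 (2 arrays against 2). For 1 hr against control it was 0.88 (1 array against 1) and -0.55 (1 array against 2). The other Slc1a3 probe sets kept their direction for 2 hr against control. They read 0.91 and 0.55 for S75687_s_at, 1.10 and 0.074 for X63744_at and 0.14 and 0.075 for X63744_g_at. For 1 hr against control S75687_s_at read 0.69 and 0.55, X63744_at 0.58 and -1.34 and X63744_g_at 0.74 and -1.32. Glul kept its direction for 2 hr against control, at 0.93 and 0.19 for rc_AI232783_s_at, 1.10 and 0.25 for M91652complete_seq_at and 0.92 and 0.37 for rc_AA852004_s_at, but not for M91652complete_seq_g_at, at 0.84 and -0.36. Glud1 (rc_AI179613_at) read 0.22 and 0.03, and Slc1a2 (U15098_at) 0.52 and 0.18. In each of these the difference was larger in the pair that includes control replicate 3. The other Slc1a2 probe sets went the other way in that pair, at -0.63 and -0.01 for rc_AI638980_at and -1.99 and 0.10 for rc_AI044517_g_at. For 2 hr against control, Slc1a1 read 0.45 and -0.08 for D63772_at, -0.27 and -0.05 for AF038571_s_at and -0.31 and 0.08 for L35558_s_at. For 1 hr against control Glud1 (rc_AI179613_at) read 0.39 and -0.06. Control replicate 3 also had the highest ratio of the 3' to the 5' actin control probe set, 2.89 beside 1.04 to 1.68 on the remaining arrays. The part of this in the results was not tested.

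The astrocyte markers as a list were not low on those 3 arrays. Of 25 listed markers 17 were tested, and their mean log2 intensity lay between 8.76 and 9.20 on the 3 arrays, against 8.48 to 9.04 on the other 5. Of the 17, 2 were lower and 3 higher on all 3 arrays, beside 6.95% and 7.98% of all probe sets. By exposure, the marker mean lay between 8.76 and 9.04 in controls, 8.80 and 9.12 after 1 hr and 8.48 and 9.20 after 2 hr, with a median log2 change of 0.00 for 2 hr and 0.16 for 1 hr against control and 0 passing. All listed markers of astrocytes (17) and neurons (14) that the array holds passed the floor filter. The neuron mean was lowest on control replicate 3, at 7.85 there and 8.64 to 9.34 on the other 7 arrays. Of the 14 neuron markers 3 were lower and 0 higher on all 3 arrays of highest top intensity, beside 6.95% and 7.98% of all probe sets. The neuron list mean lay between 7.85 and 8.74 on those arrays, against 8.64 to 9.34 on the other 5. The part of this in the results was not tested. The neuron list had a median log2 change of 0.05 for 2 hr and -0.01 for 1 hr against control. Oligodendrocyte markers (9 genes) had medians of -0.06 and 0.25, endothelial markers (6 genes) -0.01 and 0.36, choroid plexus markers (5 genes) 0.35 and 0.39, and blood markers (4 genes) -0.21 and 0.12, with 0 passing in any list. Microglia markers (7 genes) had medians of 0.21 for 2 hr and 0.34 for 1 hr, also with 0 passing. All 7 had a fitted change above 0 for 2 hr against control, 2 of them without overlap (beside 2.9% of all probe sets), and the list mean lay between 4.82 and 5.40 in controls, 5.23 and 5.79 after 1 hr and 5.45 and 6.14 after 2 hr. Separation from the controls was not particular to the microglia list. Of the 6 endothelial markers, 2 also read higher on every 2 hr array than on any control, although 3 of the 6 had a fitted change below 0. Of the 4 blood markers, 2 read higher on both 1 hr arrays than on any control, beside 7.54% of all probe sets. The part of these marker readings in the members' values was not tested.

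The genes whose pattern over the 8 arrays was most like each member were looked up among 3389 genes above the floor on every array, by Pearson correlation of log2 intensities. For Slc1a3 (S59158_at) they were Grb2, an adaptor of receptor tyrosine kinases, at 0.987, Cds1, a synthase of CDP-diacylglycerol, at 0.987 and Snap25, the neuronal vesicle fusion protein, at 0.984. For Glud1 (rc_AI179613_at) they were Suox, sulfite oxidase, at 0.976, Abcc8, the sulfonylurea receptor subunit of potassium channels, at 0.964, and Arf3, a small GTPase, at 0.963. For Glul (rc_AI232783_s_at) the nearest were Vamp1, a vesicle fusion protein, at 0.957, Klk1 at 0.939 and Mkrn2 at 0.934, for Slc1a2 (U15098_at) Stx6 at 0.958, Vtn at 0.943 and Sfmbt1 at 0.939, and for Slc1a1 (D63772_at) Rab3ip at 0.929, Mthfd1 at 0.913 and Ncoa4 at 0.886. The genes named for Slc1a3 and Glud1, and Klk1 and Mkrn2, also read lower on all 3 arrays of highest top intensity than on the others. The remaining named genes did not. This separation was seen in 6.95% of all probe sets, and its part in the correlations was not tested. S59158_at and rc_AI179613_at showed it themselves, and the named genes were picked for likeness to the members. The 6.95% is thus no measure of whether the named genes show it more often. The highest of many such correlations over 8 arrays is a description and carries no test.

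Other genes of the glutamate and GABA cycle were read from a list. Of 30 listed genes 15 had a probe set and 13 were tested, since Slc1a6, a Purkinje cell glutamate transporter, and Slc17a7, a vesicular glutamate transporter, were above the floor on 0 arrays. An intensity depends on its probes, so these readings do not show that either RNA was absent. After 2 hr against control 10 of the 13 were above 0 and 3 below, with a median log2 change of 0.20. Over all probe sets 52.3% were above 0, with a median of 0.02. At 1 hr it was 9 and 4 with a median of 0.08, beside 55.8% and 0.05 over all. Between 2 hr and 1 hr it was 9 and 4 with a median of 0.08, beside 47.4% and -0.03 over all. In each comparison 0 of the 13 passed. The aminotransferases, which move amino groups between glutamate and keto acids, had these log2 changes for 2 hr against control: Got1 at 0.002 (SE 0.297), Got2 at 0.20 (SE 0.336) and Gpt at 0.21 (SE 0.293). Gls2, a glutaminase that releases glutamate from glutamine, read 0.39 (SE 0.471), and Gad1, which makes GABA from glutamate, 0.24 (SE 0.399).

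Gad2, the second GABA-synthesising enzyme, was the one listed gene whose groups did not overlap with a log2 change above 0.5. It read 11.5, 17.0 and 15.4 in controls, 50.7 and 31.0 after 1 hr and 31.9, 32.0 and 25.8 after 2 hr, so every exposed array lay above every control, as in 2.9% of all probe sets for 2 hr and 7.54% for 1 hr. The log2 change was 1.04 (SE 0.394) for 2 hr and 1.46 (SE 0.440) for 1 hr against control, with unadjusted p of 0.0251 and 0.00831 and adjusted p of 1.0 in limma for both. The 2 comparisons share their controls, and the control readings lay close to the floor of 9.1. Pc, the pyruvate carboxylase that lets astrocytes make glutamate anew, also lay higher after 2 hr than in any control, at 162.8, 181.5 and 157.0 after 2 hr against at most 155.4 in controls, a log2 change of 0.35 (SE 0.269) that did not pass. Among the 13, 2 (Gad2 and Pc) did not overlap and were higher for 2 hr against control, beside 2.9% of all probe sets, and 3 (Gpt, Abat and Got1) were lower on all 3 arrays of highest top intensity, beside 6.95%. The mean of the 13 lay between 7.15 and 7.33 on those 3 arrays, against 7.41 to 7.76 on the other 5.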

How the data were processed

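The values the authors deposited are linear intensities, 1 for each probe set on each of 8 arrays. The labels do not name the software or scaling behind them. After trimming 2% from each end the array means lay between 150.17 and 150.33, so no further scaling was applied. Intensities under the 20th percentile of all values (9.1) were set to it before taking log2, and 59 control probe sets were not tested. Of 8740 probe sets, 7770 above the floor on at least 2 arrays were tested with limma 3.58.1 in R 4.3.3 (lmFit, contrasts.fit, eBayes with an intensity trend, all 8 arrays, 1 mean per group), with two-sided p-values adjusted by Benjamini-Hochberg across these 7770 and a threshold of 0.05. Steps were tested on 10 simulated data sets. Symbols came from the platform annotation, checked through gene numbers against RefSeq (0 differed): of the 8740, 7006 had 1 symbol, 308 several and 1426 none, and only those with 1 were named. Each member probe set is named. Tested changes with intervals rest mainly on the brightest probe set of a gene, and the others are given as values. The likeness rule took the 3 genes of highest correlation per member. From the glutamate and GABA cycle list, genes were named where groups did not overlap and the log2 change exceeded 0.5 in size; Slc1a6, Slc17a7, Got1, Got2, Gpt, Gls2, Gad1, Pc and Abat were named after their values were seen. The members and lists were chosen with earlier results of these data known.

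Alternatives were quantile, median and astrocyte marker centring, a floor at the 5th or the 40th percentile, adding 16 in place of a floor, no filter, a filter on all 8 arrays, no trend, only the groups compared, blocks for replicate number, highest top intensity and low 5S reading, leaving out the 3 arrays of highest top intensity, and leaving out each array. Array pairs correlated between 0.876 and 0.969 and shared at most 70 identical values, so no array was a copy of another, and all 8 were counted as separate samples. These values cannot show that the samples came from separate animals, and the number of arrays limits the precision.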

Additional observations from a re-analysis of the deposited data

How the results depend on the processing

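No member probe set passed under any of the 22 alternative settings (limma, 986 values, smallest adjusted p 0.649), and 8 of these values had an unadjusted p under 0.05, all from probe sets other than the brightest of their gene. Over all probe sets the count passing stayed at 0 except without the filter, which gave 4 for 1 hr against control and 4 for 2 hr against 1 hr. In both these were Mapk8, Tcf21, Ldhc and the unnamed rc_AI639284_at, named after their values were seen. Tcf21, Ldhc and rc_AI639284_at changed by 0.34, 1.04 and 1.24 for 1 hr against control and by -0.34, -1.04 and -1.24 for 2 hr against 1 hr. Their control and 2 hr means were thus equal, as they would be for readings set to the floor, and the cause was not tested. Fitted changes turned sign in 36 of 290 values of the brightest probe sets and 48 of 696 of the others, and the cause was not tested. Among the others, the low 5S block turned the 1 hr changes against control of Slc1a3 X63744_g_at (-0.57, with the block 0.54) and X63744_at (-0.54, with the block 0.038) and of Slc1a2 rc_AI638980_at (-0.42, with the block 0.062). Without the 3 arrays of highest top intensity Slc1a2 rc_AI044517_g_at turned for 2 hr against control (-0.60, without them 0.098). Without 1 hr replicate 1, Glul rc_AA852004_s_at (0.57, without it -0.039) and Glud1 rc_AI137421_at (-0.48, without it 0.0035) turned for 2 hr against 1 hr. For 2 hr against control, Slc1a3 read -0.041 with median centring, -0.0008 with astrocyte marker centring and -0.33 without the 3 arrays of highest top intensity, where Slc1a1 read -0.085. For 1 hr against control, Glud1 read -0.10 with median centring, -0.0017 with astrocyte marker centring and -0.061 without those 3 arrays, and Slc1a3 read 0.035 with them as a block and 0.81 with the low 5S block. For 2 hr against 1 hr, Glud1 and Glul read -0.039 and -0.050 with the block of highest top intensity, and Glud1, Glul and Slc1a3 read -0.13, -0.21 and -0.29 with the low 5S block. Leaving out 1 array gave, for 2 hr against control, -0.072 to 0.34 for Slc1a1, -0.59 to 0.37 for Slc1a3 and -0.20 to 0.32 for Glud1. For 1 hr against control it gave -0.78 to 0.18 for Slc1a3, -0.070 to 0.86 for Glul and -0.27 to 0.23 for Glud1. For 2 hr against 1 hr it gave -0.13 to 0.30 for Glud1, -0.11 to 0.27 for Glul and -0.14 to 0.45 for Slc1a3. Slc1a2 (U15098_at) kept a change of 0 or more in all of these.

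Deviations of same-numbered arrays from their group means had correlations from -0.331 to 0.286, and those of differently numbered arrays from -0.362 to 0.397. The deviations of the 2 arrays of the 1 hr group mirror each other, so these correlations cannot exclude pairing. The labels do not state that the numbers mark pairs, so they were not taken as such. With the replicate block 0 probe sets passed in each comparison, 0 members passed, and Glud1 read -0.24 for 1 hr against control.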
